A study of Mus musculus with 400 samples.

Results

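The 10 genes described here are products of the absorptive cell of the small intestine, the enterocyte, measured in single Lgr5-high cells of mouse crypts. They were chosen as a list of enterocyte genes for lipid handling and for the brush border, and were followed over the cells with a total of 10000 counts or more and over the 10 library sets named in the sample titles. All 10 were found, each as 1 row, among the 33496 genes of the count table. The study sorted Lgr5-high cells from Lgr5 GFP/+ mice, which carry the Lgr5::EGFP-IRES-Cre-ERT2 allele, so a green fluorescent protein reports Lgr5, a Wnt pathway receptor of crypt base stem cells. Crypts came from the duodenum and jejunum of animals matched for age and sex, whose ages the labels leave out, after villi had been shaken off. Dead cells were left out with DAPI, and single cells were captured on a Fluidigm C1 chip with 400 capture sites, from which 400 cells were deposited. The labels also describe tamoxifen for lineage tracing and Cyp1a1::H2B-YFP mice, without tying either to these cells.

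All cells form 1 group and no animal is named for any of them, so cells are not replicates. No test was made, and every SD below is over the 10 library sets, which is a technical spread. Of the 400 cells, 380 were kept, with 36 to 39 in each set. Their totals ranged from 10766 to 70133 counts with a median of 32112. All 40 cell barcodes were shared by all 10 sets, and no pair of cells had identical columns. The 10 stem cell genes checked as labels of the sort all had a count in over 90% of cells, from Smoc2, a matricellular protein, at 100% to the Wnt-controlled factor Ascl2 at 91.1%.

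Enterocytes are the non-dividing daughters of crypt stem cells and do most of their work on the villus. They take up dietary fatty acids, carry them through the cytosol on fatty acid binding proteins, and export them on chylomicrons coated with apolipoproteins. Their apical surface is a brush border of microvilli bundled by actin-binding proteins such as villin, and studded with enzymes that finish the digestion of sugars and peptides. HNF4, CDX and GATA factors are known regulators of such genes.

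The stretches around the transcription starts of 5 members are printed because the results below divide them: Prap1 and Fabp2 were found in nearly all cells, Apoa4 and Alpi were concentrated in few, and Lct differed with the cell cycle level. Each runs from 250 bases before to 50 after the RefSeq start (GRCm38.p6), 5′ to 3′ on the gene's strand, with matches to the motifs in capitals. The motifs searched included CAAAGNNCA for HNF4, TTTATG for CDX and AGATAA for GATA, on both strands, and TATAAA for the TATA box on the gene's strand.
Prap1 (chr7:140093146-140093445, plus strand): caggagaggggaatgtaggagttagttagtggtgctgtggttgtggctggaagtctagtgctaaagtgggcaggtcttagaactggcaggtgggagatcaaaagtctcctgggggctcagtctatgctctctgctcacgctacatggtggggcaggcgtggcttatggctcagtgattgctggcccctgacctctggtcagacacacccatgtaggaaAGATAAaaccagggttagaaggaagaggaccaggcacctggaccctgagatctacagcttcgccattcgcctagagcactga
Fabp2 (chr3:122894822-122895121, plus strand): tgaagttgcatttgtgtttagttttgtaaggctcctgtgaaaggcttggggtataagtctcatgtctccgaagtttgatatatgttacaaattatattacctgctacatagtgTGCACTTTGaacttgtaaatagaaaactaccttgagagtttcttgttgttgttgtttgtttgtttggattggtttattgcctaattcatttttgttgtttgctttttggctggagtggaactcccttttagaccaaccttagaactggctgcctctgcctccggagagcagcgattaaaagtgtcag
Apoa4 (chr9:46240594-46240893, plus strand): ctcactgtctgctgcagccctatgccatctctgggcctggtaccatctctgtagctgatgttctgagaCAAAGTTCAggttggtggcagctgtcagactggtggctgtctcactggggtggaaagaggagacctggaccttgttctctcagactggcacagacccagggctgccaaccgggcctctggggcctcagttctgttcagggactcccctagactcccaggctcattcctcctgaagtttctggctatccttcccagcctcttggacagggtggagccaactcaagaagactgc
Alpi (chr1:87101557-87101856, minus strand): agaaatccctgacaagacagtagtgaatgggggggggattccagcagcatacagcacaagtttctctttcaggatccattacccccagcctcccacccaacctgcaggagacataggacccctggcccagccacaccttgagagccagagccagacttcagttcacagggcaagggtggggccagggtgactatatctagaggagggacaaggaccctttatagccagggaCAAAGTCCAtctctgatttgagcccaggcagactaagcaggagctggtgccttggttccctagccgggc
Lct (chr1:128328269-128328568, minus strand): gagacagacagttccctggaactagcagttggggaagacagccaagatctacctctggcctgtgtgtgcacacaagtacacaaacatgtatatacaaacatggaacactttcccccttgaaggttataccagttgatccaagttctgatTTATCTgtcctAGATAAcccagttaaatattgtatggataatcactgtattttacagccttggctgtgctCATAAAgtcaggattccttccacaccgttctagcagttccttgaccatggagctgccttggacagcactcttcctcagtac
The HNF4 motif was found in 3 of the 10 members, at positions -182 (Apoa4), -137 (Fabp2) and -19 (Alpi) from the start, and in 6.36% of all 32851 promoters of this length. CDX matches stood in Fabp1, Lct and Sis (11.8% of promoters), GATA matches in Prap1 and Lct (11.2%) and TATA boxes in Fabp1 and Sis (8.32%). No match overlapped another motif, and Apoa1, Anpep and Vil1 had none in this window. A match is a description of the letters and says nothing of binding in these cells.

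The members fell into a broad group and a sparse group by the share of cells with a count. Prap1, which encodes a secreted proline-rich acidic protein, had a count in all 380 cells, with 3 counts or more in each and a mean of 12.9 counts. Vil1, the actin-bundling villin of microvilli, had a count in 99.2% of cells (95% exact binomial interval 97.7 to 99.8), with a mean of 7.66 counts. Fabp2, the intestinal fatty acid binding protein, had a count in 97.1% (94.9 to 98.5), with a mean of 6.63. Fabp1, the fatty acid binding protein shared with liver, had a count in 52.9% (47.74 to 58.01), with a mean of 1.59. These intervals, and all others given here, cover counting error only.

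The brush border hydrolases were sparser. Anpep, aminopeptidase N, had a count in 39.2% of cells (34.3 to 44.3), and the disaccharidase Sis, sucrase-isomaltase, in 31.6% (26.9 to 36.5). Lct, the milk sugar enzyme lactase, had a count in 22.4% (18.3 to 26.9), and Alpi, intestinal alkaline phosphatase, in 4.74% (2.83 to 7.38). The apolipoproteins Apoa1 and Apoa4 had a count in 20.5% (16.6 to 24.9) and 16.8% (13.2 to 20.99). Most positive cells of these genes held 1 count, namely 49 of 78 for Apoa1, 39 of 64 for Apoa4, 16 of 18 for Alpi, 90 of the positive cells for Anpep, 54 of 85 for Lct and 84 of 120 for Sis. Of the 10 members, 9 had a count in at least 10% of cells and 4 in at least 50%, against 51.4% and 22.3% of all genes of the table.

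**Figure D1:**
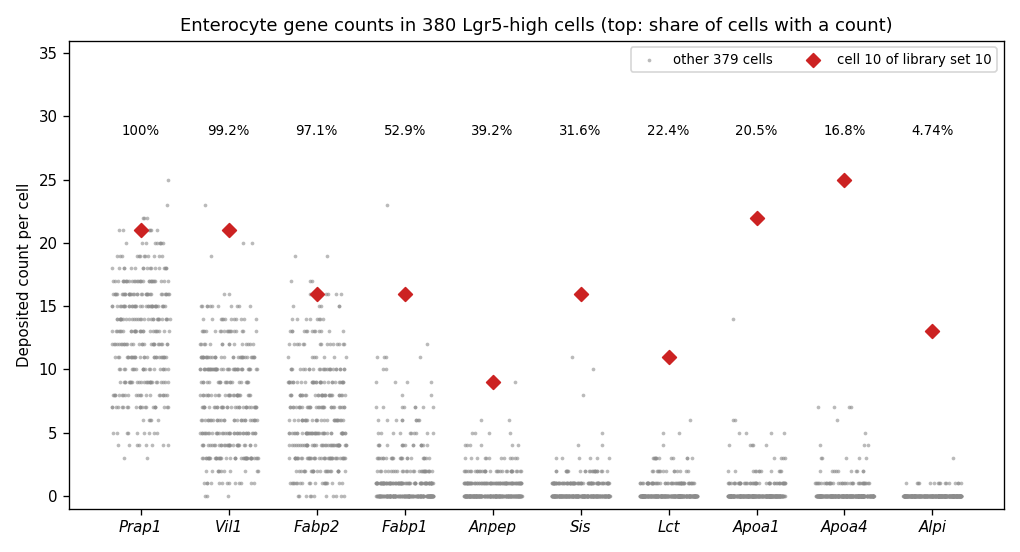
Deposited count of each of the 10 genes (horizontal axis, ordered by share of cells with a count, printed on top) in each of 380 Lgr5-high cells (vertical axis). Grey points are single cells, and the red diamond is cell 10 of library set 10, which holds the highest count of Apoa4 (25), Apoa1 (22), Sis (16), Alpi (13) and Lct (11), while its counts of Prap1, Vil1 and Fabp2 lie within the range of the other cells.

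Genes of cells that the sort should lack show what a share of this size can hold. In the same cells, immune genes had a count in 0.263% (Cd8a) to 34.7% (Lyz2), stromal genes in 2.89% (Col1a1) to 16.3% (Dcn), and endothelial genes in 14.5% (Kdr) to 44.5% (Pecam1). Among other epithelial types, enteroendocrine genes ranged from 3.42% (Neurod1) to 13.7% (Chgb), tuft genes from 3.68% (Il25) to 85.5% (Pou2f3), goblet genes from 12.9% (Clca1) to 95.3% (Spink4) and Paneth genes from 27.1% (Pnliprp2) to 100% (Defa24, an alpha-defensin with near-identical copies). The red cell gene Alas2 stood at 4.47%. The shares of the 6 sparse members other than Fabp1 lay within the pooled range of the immune, stromal and endothelial genes. Anpep did so only through Pecam1. Such shares are not by themselves evidence of expression in those cells. Thinned to 19169 counts, the 10th percentile of depth, with shallower cells left out, the expected shares were 13.8% for Apoa1, 12.8% for Apoa4, 43.04% for Fabp1, 95.2% for Fabp2, 99.9% for Prap1, 3.27% for Alpi, 27.8% for Anpep, 16.3% for Lct, 22.4% for Sis and 97.9% for Vil1.

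Levels are compared between genes as CPM (counts scaled to a common library total) per kb of annotated exon, although no label says whether these counts scale with length. On that scale Prap1 was highest at 653 ± 55.7 (mean and SD over sets), followed by Fabp2 at 215.2 ± 24.1, Fabp1 at 90.9 ± 42.9 and Vil1 at 67.4 ± 7.87. Then came Apoa1 at 11.6 ± 13.8, Apoa4 at 7.04 ± 12.96 and Anpep at 5.31 ± 1.47. The lowest were Sis at 2.22 ± 1.44, Lct at 1.94 ± 1.44 and Alpi at 1.14 ± 1.92. On that scale Fabp1 and Vil1 did not differ beyond their spread, nor did Apoa1, Apoa4 and Anpep among themselves, nor Sis, Lct and Alpi. The order depends on the division by length. Undivided, Vil1 stood at 239.4 ± 27.9 CPM, beside Fabp2 at 207.6 ± 23.2. Fabp1, at 50.3 ± 23.7 CPM, then lay below Vil1 by more than their spread. No gene exceeded 36 counts in a cell, and high levels may therefore be compressed.

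Some counts may be shared with overlapping genes. Exons of Prap1 overlap those of Fuom, and exons of Vil1 overlap those of Usp37, both on the opposite strand, and Fuom and Usp37 had counts in 85.3% and 80% of cells. Exons of Apoa4 overlap the opposite-strand genes Gm10680, which had a count in 3 cells, and Gm47528, which was not analysed here. No source used here states the use of strand, so these pairs cannot be told apart. The paralogs of the hydrolases and villin had their own patterns: Akp3, another intestinal alkaline phosphatase beside Alpi, had a count in 2 cells, tissue-nonspecific Alpl in 28.7%, the villin relatives Vill in 4.47% and Avil in 23.2%, and the ileal bile acid binding protein Fabp6 in 9.47%. Mgam, the maltase-glucoamylase related to Sis, had a count in 98.2% of cells and a mean of 6.29 counts.

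The counts of the sparse members were unevenly spread over cells. The variance over the mean of the count was 6.65 for Apoa4, 5.99 for Alpi, 5.72 for Apoa1, 4.50 for Fabp1, 3.49 for Sis, 2.57 for Lct and 2.16 for Anpep, beside 2.46 for Fabp2, 2.15 for Vil1 and 1.44 for Prap1. The 19 cells with the most counts (5% of cells) held 66% of Apoa4 counts and 60.1% of Apoa1 counts, against 12.1% for Fabp2 and 8.19% for Prap1. A single cell, number 10 of library set 10, held 40.6% of all Alpi counts, 16.7% of Apoa4, 12.7% of Apoa1, 7.77% of Sis and 7.38% of Lct. Without that cell the ratio was 3.11 for Apoa4, 3.46 for Apoa1, 1.27 for Alpi, 2.52 for Sis and 1.96 for Lct.

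Cell 10 of set 10 was the only 1 of 380 cells with a count of all 10 members. It had 25 counts of Apoa4, 22 of Apoa1, 21 of Prap1, 21 of Vil1, 16 each of Fabp1, Fabp2 and Sis, 13 of Alpi, 11 of Lct and 9 of Anpep. For Apoa4 the next cell had 7 counts, and for Alpi the next had 3. Its summed count over the members was 170, against 66 in the next cell and a median of 30.5. The median cell had a count of 5 members, and 29.2% and 29.5% of cells had 4 and 5 of them.

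Many other absorptive genes were also high in the same cell, but not all of those listed. It ranked first of 380 cells in the summed CPM of the other enterocyte lipid genes (5226 CPM, against 2003 in the next cell and a median of 726), with Apoc2 at 22 counts, Mttp, the lipid loader of chylomicrons, at 14 and Apob, their structural protein, at 13. It also ranked first in the other brush border hydrolases (2807 against a median of 384.03 CPM), with the meprin Mep1b at 17 counts, and in nutrient transporters (1290 against 187.97 CPM), with the glucose transporters Slc5a1 and Slc2a2 at 13 each. It had a count of 16 of the 18 other lipid genes, 9 of the 13 other hydrolases and 7 of the 10 transporters. The medians over cells were 7, 3 and 2 genes. In these lists Plin2 had 4 counts against a mean of 6.25, and Cd36, Fabp6, Treh, Tmprss15, Slc3a1 and Slc10a2 had 0. The cell ranked 5 of 380 in brush border structure genes, where Myo7b had 1 count against a mean of 4.13 and Anks4b 0. It ranked 48 of 380 in the enterocyte regulators. The regulators stood on both sides of their means over cells: Hnf4a had 8 counts against a mean of 14.7 and Hes1, a Notch target, 5 against 12.96, while the epithelial factor Elf3 had 15 against 9.63, Hnf4g 10 against 3.77 and Klf4 7 against 1.38.

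The same cell was near the median in stem cell transcripts and low in cell cycle transcripts. Its summed stem list stood at 2387 CPM against a median of 2425. Lgr5 (10 counts against a mean of 6.51), Prom1, Gkn3 and Slc12a2 lay above their means over cells. Olfm4, Smoc2, Axin2, Ascl2, Sox9 (3 against 5.31) and Cdk6 (5 against 8.89) lay below theirs. The summed cell cycle list of this cell stood at 1097 CPM against a median of 3682, with 2 cells lower. Mki67 had 3 counts and Top2a 4 (means 10.0 and 13.9), and Ccna2, Ccnb1 and Cdk1 had 0. Goblet, Paneth and tuft lists lay below their medians, and all 5 immune markers were at 0. The enteroendocrine, endothelial and stromal lists stood at 64.5, 96.8 and 32.3 CPM, against medians of 0, 34.03 and 0 CPM. Its total of 30998 counts and 8961 genes lay near the medians of 32112 and 8616, and its mitochondrial share was 0.952% against a median of 0.887%. Whether it is 1 cell or 2 captured together was not tested.

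**Figure D2:**
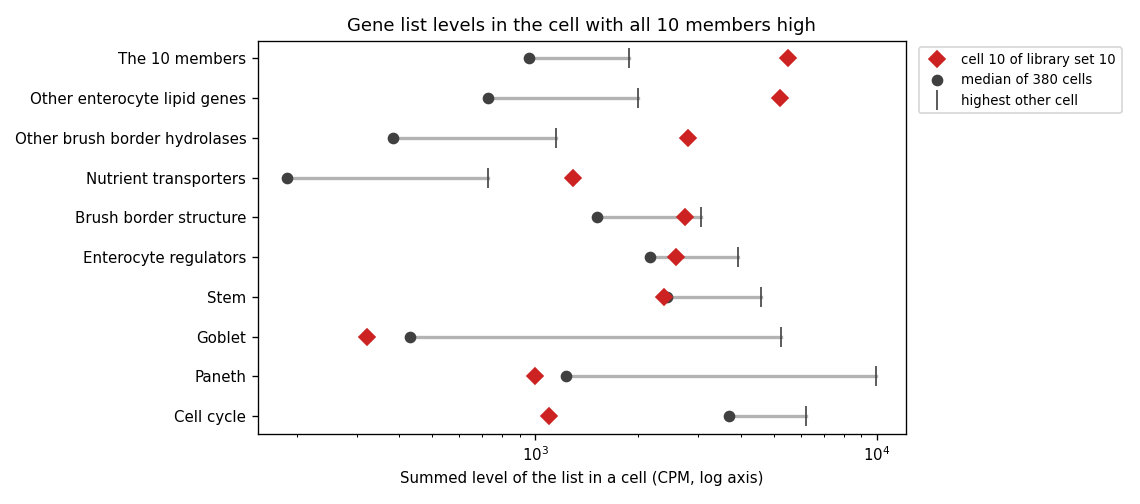
Summed level of gene lists (CPM, log axis) in cell 10 of library set 10 (red diamond), in the median of 380 cells (black point) and in the highest other cell (tick). The cell stands above every other cell for the 10 members, the other lipid genes, the other hydrolases and the nutrient transporters, near the median for the stem list (2387 against 2425 CPM) and far below it for the cell cycle list (1097 against 3682 CPM).

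Across library sets the broad members varied little and the sparse ones much. Prap1 ranged from 350.8 CPM in set 6 to 471 in set 4 (405 ± 34.6), Fabp2 from 156.96 in set 1 to 237.1 in set 4 (207.6 ± 23.2) and Vil1 from 209.5 in set 6 to 303.6 in set 1 (239.4 ± 27.9). Fabp1 ranged from 24.9 CPM in set 7 to 96.6 in set 1 (50.3 ± 23.7) and Anpep from 12.1 in set 1 to 32.4 in set 10 (21.95 ± 6.07). Sis was highest in sets 7 and 10, at 37.04 and 35.9 CPM, and lay between 7.48 and 15.2 in the other sets.

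Apoa4, Apoa1, Lct and Alpi stood apart in set 10. Apoa4 had 77.97 CPM in set 10, against 8.62, 10.1, 1.57, 15.3, 0, 0.948, 10.8, 0.856 and 1.60 in sets 1 to 9. Apoa1 had 57.8 CPM in set 10, against 1.72, 6.71, 7.85, 14.4, 1.50, 8.53, 18.9, 1.71 and 24.05 in sets 1 to 9. With cell 10 of that set included, the exact Poisson interval of set 10 did not overlap that of any other set for either gene. Lct had 36.8 CPM in set 10 and 4.19 to 16.5 in the other sets, and Alpi had 14.9 CPM in set 10 and 0 to 4.49 in the others.

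For Apoa4 and Apoa1 the difference of set 10 was not carried by cell 10 alone, though Apoa1 came closer to the next set. Leaving the cell out, set 10 had 57.6 CPM of Apoa4 (next set 15.3) and 39.6 CPM of Apoa1 (next set 24.05). These levels are given without an interval. Without that cell, Apoa4 had a count in 27 of 36 cells of set 10, or 75% (57.8 to 87.9), against 10.5% of cells of the other sets (7.46 to 14.2). Apoa1 had a count in 66.7% (49.03 to 81.4) of those cells and 15.5% (11.8 to 19.7) of cells of the other sets, and Lct in 47.2% (30.4 to 64.5) and 19.5% (15.5 to 24.1). The intervals overlapped for Sis, at 47.2% (30.4 to 64.5) and 29.7% (24.9 to 34.9), for Alpi, at 11.1% (3.11 to 26.1) and 3.79% (2.03 to 6.39), and for Fabp1, Fabp2, Anpep, Prap1 and Vil1. No cell of set 10 other than cell 10 had more than 7 counts of Apoa4.

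Some other absorptive genes also differed between set 10 and the rest, by amounts that varied between genes. Of 30 genes of the lipid, hydrolase and transporter lists, members included, with 8 counts or more in cell 10, a cutoff set after the values were seen, Apoc2 had a count in 83.3% of the other 36 cells of set 10 and 29.4% of cells of other sets. Mogat2, which builds diacylglycerol, stood at 58.3% and 19.8%. The aminopeptidase Enpep stood at 8.33% and 23.03%, and Apoc3, the neighbour of Apoa1 and Apoa4 on chromosome 9, at 11.1% and 4.08%. The excess of set 10 over the other sets, without cell 10, per count in cell 10 was 3.08 CPM for Mogat2, 2.59 for Apoc2, 2.08 for Apoa4, 1.36 for Apoa1, 0.28 for Apoc3, 0.17 for Alpi, 0.05 for Ggt1 and -1.01 for Enpep. Over all 30 genes it ranged from -1.66 CPM (Prap1) to 3.08. These values have no interval and come from counts that may be compressed. Some rest on few counts in the other cells of set 10 (Ggt1 2, Alpi 4, Enpep 4 and Apoc3 6). Whether the genes kept 1 ratio in cell 10 and in the rest of its set was not tested. In the 9 other kept cells with cell barcode 10, Apoa4 had a count in 2 and Alpi in 0.

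**Figure D3:**
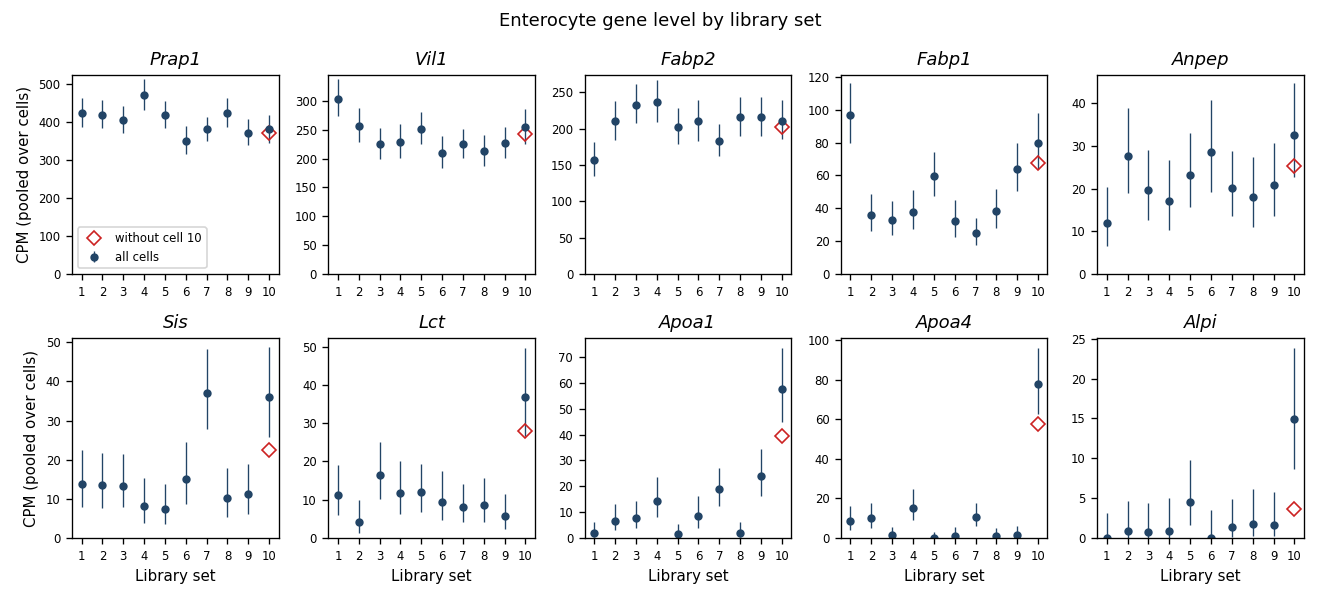
Level of each gene (CPM pooled over the kept cells, vertical axis) in each of the 10 library sets (horizontal axis), with exact 95% Poisson intervals of the summed counts. The red open diamond is set 10 without its cell 10. Apoa4 and Apoa1 remain above every other set without that cell (57.6 and 39.6 CPM), while Alpi is at 3.60 CPM, below set 5.

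The 20 cells under 10000 counts, with 149890 counts in all, give a further comparison. Prap1 had 404 CPM in the kept cells and 520 CPM (exact Poisson interval 411 to 649) in those 20. For the other 9 members the level in the kept cells lay within the interval of the 20 cells, as for Vil1 (239.3 against 220.2 CPM, 151.5 to 309.2), Fabp2 (207.1 against 220.2, 151.5 to 309.2) and Fabp1 (49.8 against 86.7, 46.2 to 148.3). Lct had 0 counts there.

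The cell cycle level divided the members. Cells were ranked by the summed CPM of 23 cycle genes, and the highest tertile was set against the lowest. Lct stood at 4.18 CPM in the highest and 23.7 CPM in the lowest tertile, with 9.60 between, a log2 ratio of -2.26 that lay above 0 in 1 of 10 sets (set mean -2.29, SD 1.57). Only 1.19% of the 17217 genes tested, those with a count in at least 10% of cells, had a lower ratio. Anpep (18.2 and 30.5 CPM), Sis (14.3 and 24.0007) and Apoa4 (10.8 and 17.7) had log2 ratios of -0.72, -0.71 and -0.67, each within its SD over sets (1.15, 1.32 and 2.50). Their ratios lay above 0 in 1, 3 and 5 of 10 sets.

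Fabp2 and Prap1 ran the other way by more than their SD over sets, while Vil1 and Fabp1 lay within theirs. Fabp2 had 228.4 CPM in the highest and 170 CPM in the lowest tertile (log2 ratio 0.42, set SD 0.27, above 0 in 9 of 10 sets), and Prap1 had 426 and 381.1 CPM (0.16, SD 0.10, above 0 in 10 of 10 sets). Vil1 had 246.8 and 226.7 CPM (0.12, SD 0.22) and Fabp1 50.6 and 38.9 CPM (0.37, SD 1.21). Of 9 members tested, 4 were lower and 0 higher by a log2 ratio of 0.5 or more, against 34.9% and 12.2% of all genes tested, so the count of lower members is near that background. Cells of the highest tertile had more counts and fewer genes than those of the lowest (medians of 33332.5 and 28822 counts, 8243.5 and 9118 genes). At equal depth the number of genes per cell had a rank correlation of 0.25 with Lct, -0.26 with Prap1, -0.23 with Fabp2 and -0.47 with the cycle list, and its part in these ratios was not tested. Cell 10 of set 10 is in the lowest tertile: without it Lct lay at -2.09, Anpep at -0.62 and Fabp1 at 0.52, Sis moved to -0.46, Apoa4 to -0.06 and Apoa1 to 0.17 (-0.39 with it, at 12.5 and 16.7 CPM).

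The level of Lgr5 within the sorted cells was compared with the members in the same way. Lgr5 itself stood at 329.4 CPM in the highest tertile, 196.99 between and 91.4 in the lowest. Prap1 (409 and 411 CPM in the highest and lowest tertile), Fabp2 (205.6 and 215.6) and Vil1 (234.3 and 254.2) had log2 ratios of -0.01, -0.07 and -0.12, each within its SD over sets (0.10, 0.32 and 0.25). Apoa4 had 21.4 and 8.85 CPM (log2 ratio 1.19, set SD 2.12), Lct 15.2 and 8.60 (0.75, SD 2.19), Anpep 28.2 and 17.7 (0.64, SD 0.94), Apoa1 20.1 and 13.03 (0.59, SD 1.55), Fabp1 54.3 and 38.3 (0.49, SD 1.41) and Sis 16.7 and 17.9 (-0.10, SD 1.22). Of the 9 tested, 4 were higher and 0 lower by 0.5 or more, against 9.43% and 5.91% of all genes tested. Each of these ratios was smaller than its spread over sets. Cell 10 of set 10 is in the highest tertile. With it left out of the same tertiles, Apoa4 lay at 0.70, Anpep at 0.53, Lct at 0.48 and Apoa1 at 0.14, which leaves 2 members past 0.5. With the tertiles drawn again without it, Lct was also past 0.5, at 0.51, beside Apoa4 at 0.70 and Anpep at 0.54.

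Whether hydrolases and lipid genes were found in the same cells was described by splitting the cells deep enough for thinning into those with and those without a count of Alpi, Anpep, Lct or Sis. Over 20 random draws a median of 180.5 cells had such a count and 161.5 had none. Apoa1 stood at 19.8 CPM where a hydrolase was counted and at 7.34 CPM where none was, a log2 ratio of 1.31 (0.76 to 1.80 over draws) that lay above 0 in 8 of 10 sets (set mean 1.02, SD 1.14). Without cell 10 of set 10 it was 1.03. Apoa4 had 17.0 and 7.44 CPM, a log2 ratio of 1.09 (0.38 to 1.57), but its mean over sets was -0.24 (SD 1.29, above 0 in 4 of 10), so its ratio was not held within sets.

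For the other lipid genes, Prap1 and Vil1 the ratio was near 0 and within its SD over sets. Fabp1 had 52.1 and 48.5 CPM in cells with and without a hydrolase count, Fabp2 203.8 and 210.9, Prap1 397.4 and 403.9 and Vil1 236.04 and 242.2, with log2 ratios of 0.10, -0.05, -0.02 and -0.04. Of these 6 members 2 were higher and 0 lower by 0.5 or more, against 19.7% and 1.84% of all genes tested. Cells with a hydrolase count had a median of 8958.5 genes and those without 8656.5 (32069.5 and 34479 counts), and the part of depth and gene number in the ratios was not tested. At full depth 120 cells had none of the 4 hydrolases, 76 had 2, 15 had 3 and 2 had 4, and 23 cells had both Apoa1 and Apoa4, against 55 with Apoa1 alone and 41 with Apoa4 alone.

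**Figure D4:**
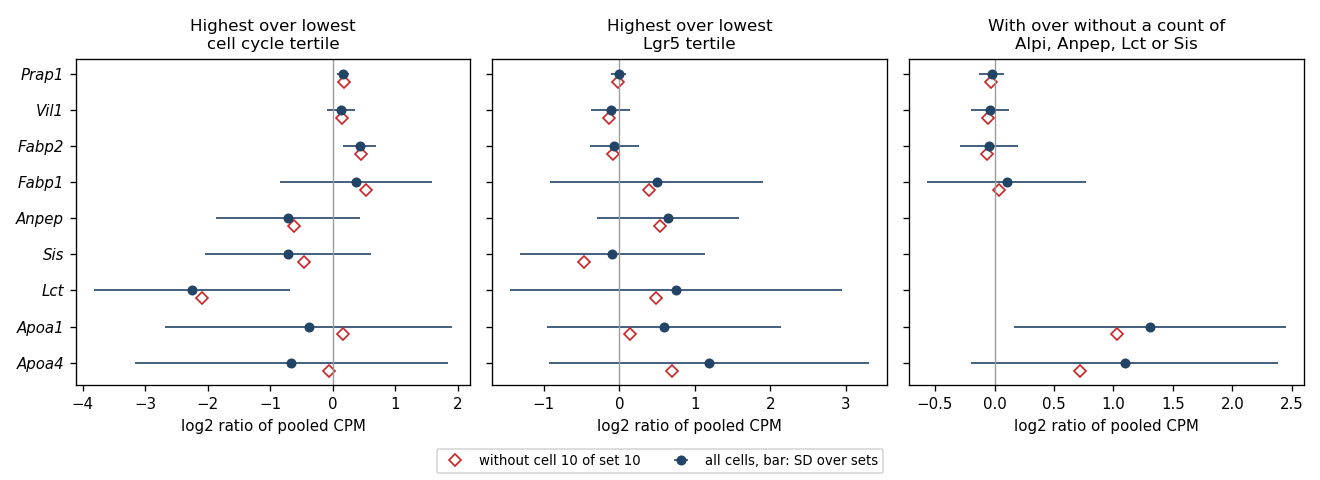
log2 ratio of pooled CPM (horizontal axis) of each tested gene (rows) between the highest and lowest cell cycle tertile, the highest and lowest Lgr5 tertile, and cells with and without a hydrolase count. Blue points are all cells with bars of 1 SD over library sets, and red diamonds leave out cell 10 of set 10: Lct stays at -2.09 on the cell cycle axis, while Apoa1 moves to 0.17 there.

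Member pairs were only weakly related over cells. The rank correlation (Spearman's rho over cells thinned to equal depth, median of 20 draws) ranged from -0.08 to 0.14 over the 45 pairs, with a median of 0.03. The highest were Apoa1 with Apoa4 and Apoa1 with Sis (0.14 each), Prap1 with Vil1 (0.12) and Apoa4 with Alpi (0.12). Within library sets the median was 0.12 for Apoa1 with Sis, 0.14 for Prap1 with Vil1 and -0.06 for Apoa1 with Apoa4. These cells share library, depth and the compression of counts, and values this low in sparse counts are no finding.

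The 2 genes most like each of 9 members over cells were not in the absorptive lists used here, many genes of which could not appear. The cut at 20% of cells kept 12 of the 18 other lipid genes, 5 of the 13 other hydrolases and 4 of the 10 transporters. All 15 structure genes and all 15 regulators were kept. Alpi, with its share under 10%, was not ranked. Of 13457 genes ranked, the 2 closest were Cdk13 and Acbd5 for Apoa1, B4galt4 and Zfp612 for Apoa4, AI413582 and Pdcd2 for Fabp1, Golga7 and Oaz1 for Fabp2, Uqcr10 and Rpl41 for Prap1, Gm21798 and Gm13261 for Anpep, Edaradd and Spock1 for Lct, Pde4a and Cpne8 for Sis, and Gm21987 and Llph for Vil1. Their rho ranged from 0.16 (Acbd5) to 0.29 (Edaradd). Lower ranks can be very close, as for Apoa1, where ranks 1 and 4 had a rho of 0.163 and 0.161. How high the top of 13457 values would be between unrelated genes was not tested, so these names are a description only. Below this cut of 2, the lipid list gene Apoc2 took rank 4 for Apoa4, with a rho of 0.199 beside 0.217 for B4galt4.

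The other absorptive lists also held both broad and sparse genes. Of 15 brush border structure genes, 12 had a count in at least 50% of cells, from the membrane protein Tm4sf20 (98.2%) to the actin bundler Espn (24.2%). Of 15 enterocyte regulators 11 did, with the nuclear receptor Hnf4a highest (100%). Of 18 other lipid genes 6 did, from the lipid droplet coat gene Plin2 (97.1%) to Apoc3 (5.00%), of 13 other hydrolases 2, from Mgam (98.2%) to the glutathione enzyme Ggt1 (3.95%), and of 10 nutrient transporters 1, from the sodium-glucose transporter Slc5a1 (81.6%) to the bile acid transporter Slc10a2 (6.58%). Over all genes of the table, 22.3% had a count in at least 50% of cells. The structure, regulator and lipid lists lay above that share, and the hydrolases and transporters below it. The median share was 35.4% for the 10 members, against 80.8%, 86.8%, 34.7%, 15.5% and 16.97% for the 5 lists in the order given.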

How the data were processed

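The data are single-cell RNA counts of 400 Lgr5-high cells. Per the labels' protocols, cDNA was made on a Fluidigm C1 chip with a SMARTer kit. The deposited values are whole-number counts per gene and cell, not normalized. The submitters' processing notes name GRCm38.p4. For strand, molecular identifiers, aligner and counter, the tool or setting is not given in the sources used here. Spike-in RNA is mentioned in the labels, and 0 rows carried such a name.

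Symbols, positions and exon lengths came from GENCODE M21 (33219 of 33496 identifiers matched), and promoters from RefSeq GRCm38.p6, where all 10 members matched. Cells with 10000 counts or more were kept. Doublets were not removed. CPM was summed counts over summed totals. Ratios used a pseudocount of 1 CPM, and a log2 ratio of 0.5 as the fold. Shares have exact Clopper-Pearson intervals and summed counts exact Poisson intervals, at 95%. Thinning was without replacement to 19169 counts, with expected shares computed exactly and rank correlations over 20 draws. Scripts were tested on simulated data (numpy 2.4.6, scipy 1.17.1).

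The members and lists were chosen with earlier results of these data known. Named genes are the members, the 2 most alike genes of each member found in at least 10% of cells (among genes found in at least 20%), the ends of each list by share (1 of them is not reported here), and fixed paralogs and neighbours; other genes named for cell 10 of set 10, its set and the overlaps were chosen after their values were seen.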

Additional observations from a re-analysis of the deposited data

Results flagged for a closer look

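In 5 of the 10 genes, 1 library set lay apart from the other 9 by a gap that is large against the whole range of sets (Dixon's criterion at 95%). Set 10 was highest for Apoa4 (77.97 CPM, next set 15.3), Apoa1 (57.8 CPM, next 24.05), Lct (36.8 CPM, next 16.5) and Alpi (14.9 CPM, next 4.49). Set 1 was highest for Vil1 (303.6 CPM, next 256.5). Chance flags about 1 in 20 groups, and here 8.00% of the 17217 genes tested were flagged, 0.976% with set 10 as the high set. Without cell 10 of set 10 the gap over the range was 0.73 for Apoa4 and 0.48 for Lct, still above the critical value, and 0.41 for Apoa1 and 0.20 for Alpi, below it. Sis, with set 7 highest, passed it then at 0.49.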

How the results depend on the processing

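The mean number of members with a count per cell was 4.84 (SD over sets 0.65). It ranged from 4.66 to 4.90 with each library set left out, and was 4.95 with a minimum of 20000 counts, 4.76 without a minimum and 4.78 without the 5% of cells with the most genes. The median log2 ratio of the tested members was -0.39 between cell cycle tertiles, and 0.14 without cell 10 of set 10, an alternative added after the data were seen. It ranged from -0.60 to 0.14 with each set left out, the last without set 10. Between Lgr5 tertiles the median was 0.49, with a range of -0.016 (without set 10) to 0.58 with each set left out and 0.12 without that cell. For both medians without that cell the tertiles were drawn again. The median of the hydrolase split was 0.04 (-0.0023 to 0.17 with each set left out). The median pairwise correlation was 0.03, and -0.01 within sets. Of 26 ratios of single genes, 8 changed sign under some alternative, 2 of them past a log2 ratio of 0.5 with all cells: the Lgr5 ratio of Apoa1 was -0.016 without set 10 (up to 0.84 without set 9, and 0.59 with all sets), and the cell cycle ratio of Alpi, which was too sparse for the count of genes tested, was -1.29 with all cells and 0.12 without cell 10 of set 10. The other 6 were below 0.5 with all cells. The cell cycle ratio of Apoa1 (-0.39) was 0.17 without cell 10 of set 10 and 0.48 without set 10, the Lgr5 ratio of Sis (-0.10) was 0.0022 to 0.27 under 5 alternatives, and 4 ratios of Fabp2, Prap1 and Vil1 were within 0.05 of 0 with all cells and where they changed sign. Of all other single-gene values, 691 moved by no more than their spread, sign changes included, and 3 by more. Those 3 were the shares of Apoa1 and Apoa4 without set 10 (15.5% and 10.5%) and Prap1 with counts mapped back through their maximum (453.9 CPM). The spread was the SD over sets for levels and ratios, and came from the exact binomial interval for shares. For sparse members that SD can exceed the level, so staying within it says little. Without set 10 Apoa4 fell from 12.3 to 5.53 CPM (spread 23.5) and Alpi from 2.63 to 1.36 CPM (spread 4.48). No paired analysis was possible because there is 1 group. Counts of 1 per cell limit Alpi, Apoa1, Apoa4, Lct, Sis and Anpep, whose shares depend on depth.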

Other observations

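High counts of 1 or 2 members were found in cells with no count of some others, although each of the 3 cells below had a count of Fabp2, Prap1 and Vil1. Cell 16 of library set 1 held the highest counts of Fabp1 (23) and Vil1 (23) and had 0 counts of Apoa1, Apoa4, Alpi, Anpep, Lct and Sis, with 26 counts of Top2a and 17 of the Paneth gene Lyz1. Cell 11 of set 9 had 14 counts of Apoa1, 0 of Apoa4 and Fabp1, and 24 of Reg3b, an antimicrobial lectin. Cell 40 of set 7 had 11 counts of Sis and 11 of Mttp, with 0 of Apoa1 and Apoa4 and 22 of Reg3b. Of the 13 cells with 15 counts or more summed over the 7 members other than Fabp2, Prap1 and Vil1, 6 were in set 10. In 48 cells that sum was 0. These cells were chosen after their values were seen.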
